A study of Homo sapiens with 8 samples.

Results

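Polyamines are made and removed by a small set of enzymes, and 10 genes of that set were followed here in 2 human neuroblastoma cell lines treated with an inhibitor of the arginine methyltransferase PRMT5. The genes are ODC1, AMD1, SRM and SMS, which make polyamines, SAT1, SMOX and PAOX, which break them down or convert them back, and OAZ1, OAZ2 and AZIN1, which control the first enzyme. They were found by their Ensembl identifiers in GENCODE release 29, and are 10 of the 58721 genes counted in each library. Messenger RNA was counted in 8 libraries, 2 in each of 4 groups: NGP cells given JSK591 for 6 days, NGP cells given the vehicle DMSO for 6 days, CHLA-20 cells given JSK591 for 6 days and CHLA-20 cells given DMSO for 6 days. JSK591 is the inhibitor's name on the samples, whereas the treatment protocol names GSK591 at its IC50, with no concentration. NGP was grown in RPMI1640 and CHLA-20 in IMEM with insulin, transferrin and selenite, both with serum, so a difference between lines is also one between media. NGP is known as a line with amplified MYCN and CHLA-20 as one without.

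Putrescine, spermidine and spermine are small positively charged molecules that bind nucleic acids and are needed for cell growth. ODC1 decarboxylates ornithine to putrescine, AMD1 makes the decarboxylated S-adenosylmethionine that donates aminopropyl groups, and SRM and SMS add those groups to form spermidine and spermine. SAT1 acetylates spermidine and spermine, PAOX oxidises the acetylated forms, and SMOX oxidises spermine directly. The antizymes OAZ1 and OAZ2 bind ODC1 and send it to the proteasome, while AZIN1 resembles ODC1, lacks its activity and holds the antizymes away from it. ODC1 is a classical target of MYC and MYCN, whose proteins bind the E-box CACGTG, and high ODC1 is a known feature of MYCN-amplified neuroblastoma.

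Promoter windows of 250 bases before to 50 bases after a gene's start were taken from RefSeq (GRCh38.p14), and 7 of the 10 genes had at least 1, for 10 windows in all. The palindrome CACGTG, which reads the same on both strands, was in 2 of these 10 windows and in 7.26% of all 35116 windows. One of the ODC1 windows held 2 copies, the first bases of which lay 29 bases before and 5 bases after that window's own start. This window lies wholly within the gene as annotated in GENCODE 29 (10439968 to 10448504, minus strand), downstream of its annotated 5′ end. The SRM window held 1 copy, 199 bases before the start. The letters TATGACTAA, a polyamine-responsive element described for SAT1, were searched on both strands and were in 0 of the 10 windows and in 0.0997% of all windows, which says only that these letters are not in these windows. The SRM and ODC1 windows with CACGTG and the SAT1 window, the promoter of the one member that was called lower in both lines, are printed 5′ to 3′ on the gene's strand with CACGTG in capitals.
ODC1, chr2:10447963-10448262, minus strand: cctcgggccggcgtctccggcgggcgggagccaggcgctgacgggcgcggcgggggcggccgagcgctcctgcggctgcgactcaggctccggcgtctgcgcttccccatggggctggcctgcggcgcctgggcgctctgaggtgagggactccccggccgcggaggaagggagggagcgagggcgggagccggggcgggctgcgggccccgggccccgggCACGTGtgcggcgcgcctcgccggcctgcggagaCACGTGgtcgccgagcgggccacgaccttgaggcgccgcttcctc
SRM, chr1:11059969-11060268, minus strand: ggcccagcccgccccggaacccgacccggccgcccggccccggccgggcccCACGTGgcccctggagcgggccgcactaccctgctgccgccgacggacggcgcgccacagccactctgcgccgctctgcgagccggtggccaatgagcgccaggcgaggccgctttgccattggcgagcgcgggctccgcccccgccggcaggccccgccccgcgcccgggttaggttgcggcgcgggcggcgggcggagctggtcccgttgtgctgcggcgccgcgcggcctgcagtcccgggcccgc
SAT1, chrX:23782923-23783222, plus strand: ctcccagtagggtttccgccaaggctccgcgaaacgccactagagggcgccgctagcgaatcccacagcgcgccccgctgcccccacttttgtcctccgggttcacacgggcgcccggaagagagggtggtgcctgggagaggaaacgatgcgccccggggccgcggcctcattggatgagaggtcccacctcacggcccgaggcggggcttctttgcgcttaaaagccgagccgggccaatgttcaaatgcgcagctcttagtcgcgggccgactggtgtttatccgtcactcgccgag
The ODC1 window with a start farther upstream, chr2:10448278-10448577, and the SAT1 window held no CACGTG.

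Counts in genes totalled 33188542 to 34914902 per library. Values are given as TMM-scaled CPM, a library's counts brought to a common total, and the 3 counts that a gene with no reads could still have were at most 0.0904 CPM. The labels do not say that replicates were grown apart, so the p-values cover the spread among these libraries, and that spread may be technical. All 9 adrenergic neuroblastoma markers were detected in every group, and their summed level was 2424 to 2439 CPM in NGP with JSK591, 2365 to 2525 CPM in NGP with DMSO, 3665 to 3766 CPM in CHLA-20 with JSK591 and 4455 to 4600.3 CPM in CHLA-20 with DMSO. TH, which makes the dopamine precursor, was among these markers. It stood at 0.686 and 0.839 CPM in NGP with DMSO and at 1352 and 1409 CPM in CHLA-20 with DMSO. With JSK591, 3 of the 9 were called higher and 3 lower in NGP at an adjusted p under 0.05 (median log2 change -0.08). In CHLA-20 2 were higher and 6 lower (-0.27), and between the DMSO groups 2 were higher and 7 lower in NGP (-1.01). The 10 fibroblast and Schwann cell markers summed to 661 to 699 CPM in NGP with JSK591 and 587 to 606 CPM in NGP with DMSO, and to 423 to 429 CPM in CHLA-20 with JSK591 and 494.5 to 495.3 CPM in CHLA-20 with DMSO. In NGP most of that sum was the collagen gene COL1A1 (656 and 618 CPM with JSK591, 539 and 556 CPM with DMSO). Of the 9 fibroblast and Schwann cell markers tested, 1 was higher and 2 lower with JSK591 in NGP (median log2 change -0.17). In CHLA-20 1 was higher and 3 lower (-0.18), and between the DMSO groups 3 were higher and 6 lower in NGP (-1.99). Of all genes tested, 16.8% were higher and 19.4% lower in NGP, and 16.9% higher and 22.4% lower in CHLA-20. Between the DMSO groups 36.6% of all genes tested were higher in NGP and 38.9% lower. The 6 blood markers summed to at most 0.390 CPM in any library, and the 6 epithelial markers to at most 5.39 CPM. PRMT5 itself had 59.0 and 60.5 CPM in NGP with JSK591, 61.9 and 62.5 CPM in NGP with DMSO, 48.0 and 48.4 CPM in CHLA-20 with JSK591 and 45.6 and 45.8 CPM in CHLA-20 with DMSO. PRMT5 was not called in either line, and as the compound acts on the enzyme, its messenger RNA does not check the labels.

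**Figure D1:**
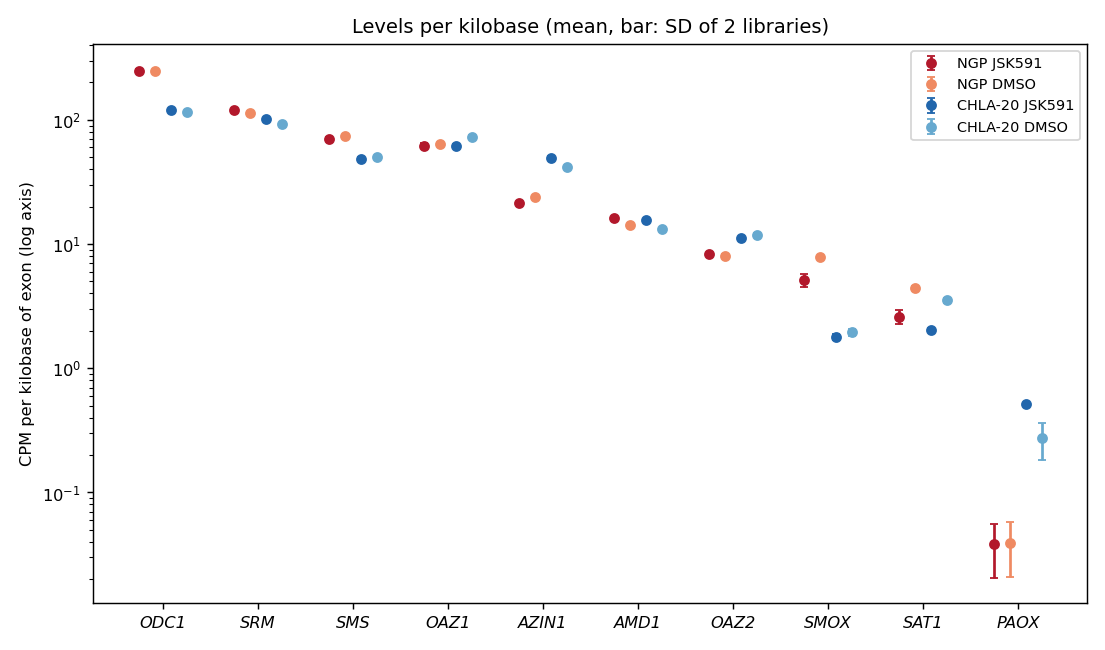
Level of each polyamine gene in CPM per kilobase of exon, on a log axis, in each of the 4 groups, with points at the mean of 2 libraries and bars for their SD. ODC1 is highest in all 4 groups and PAOX lowest, and SMOX stands above SAT1 in NGP and below it in CHLA-20. With the mean length of coding transcripts ODC1 is not highest in CHLA-20, and SAT1 stands above SMOX in NGP with DMSO.

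Per kilobase of exon, ODC1 was the highest of the 10 genes and PAOX the lowest in all 4 groups, as the plot of levels per kilobase shows. ODC1 had 247 ± 8.30 CPM per kilobase in NGP with JSK591, 246 ± 3.71 in NGP with DMSO, 120.0 ± 2.43 in CHLA-20 with JSK591 and 116 ± 2.56 in CHLA-20 with DMSO (SD, n = 2 each). SRM was next in each group, at 120.4 ± 2.80, 113 ± 3.39, 101 ± 1.72 and 92.2 ± 0.948 CPM per kilobase in the same order of groups. In NGP the order went on with SMS, OAZ1, AZIN1, AMD1, OAZ2, SMOX and SAT1 with either treatment. In NGP with DMSO OAZ2 and SMOX did not differ beyond their spread, at 8.04 ± 0.204 and 7.83 ± 0.157 CPM per kilobase. In CHLA-20 OAZ1 came directly after SRM with either treatment, OAZ2 came after AMD1, and SAT1 stood above SMOX. AZIN1 and SMS did not differ beyond their spread in CHLA-20 with JSK591, at 49.2 ± 2.06 and 48.5 ± 1.55 CPM per kilobase. This order depends on the length used. With the mean length of coding transcripts in place of the union of exons, ODC1 stayed first in both NGP groups and was placed below SRM and OAZ1 in both CHLA-20 groups. By that length SAT1 stood above SMOX in NGP with DMSO (12.2 and 11.8 CPM per kilobase) and below it in NGP with JSK591 (7.16 and 7.74).

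**Figure D2:**
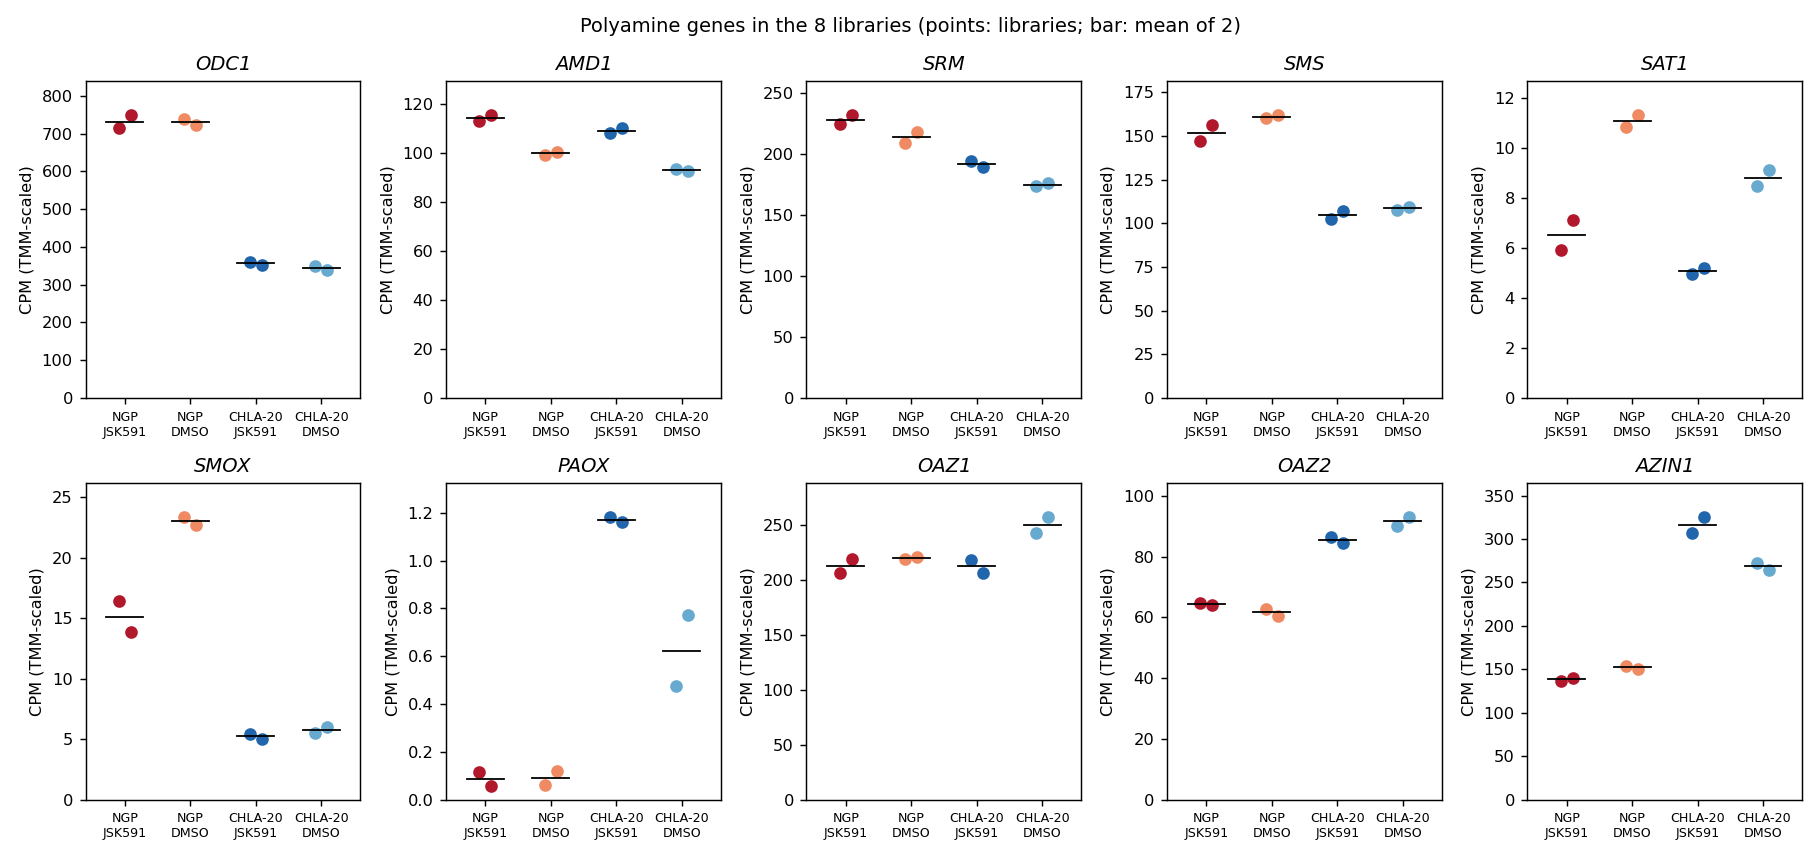
Level of each polyamine gene in CPM in every library, with a point for each library and a bar at the mean of the 2 libraries of a group. JSK591 libraries lie below DMSO libraries in both lines for SAT1, SMOX, SMS and OAZ1, and above them in both lines for AMD1 and SRM. The libraries of the 2 treatments likewise do not overlap for 65.3% of all genes tested in NGP and 66.6% in CHLA-20. SMS was called in neither line, SMOX only in NGP and OAZ1 only in CHLA-20.

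The question in each line was which of the 10 genes had another level with the PRMT5 inhibitor. In NGP 2 of them were higher and 3 lower with JSK591 by edgeR's quasi-likelihood test at an adjusted p under 0.05, where 16.8% of all 19395 genes tested were higher and 19.4% lower (36.2% in either direction). In CHLA-20 4 were higher and 2 lower, where 16.9% of all genes tested were higher and 22.4% lower (39.4% in either direction). The median log2 change of the 10 genes was -0.043 in NGP and -0.00055 in CHLA-20, against 0.00043 in NGP and -0.020 in CHLA-20 over all genes tested. The median size of the change, without sign, was 0.09 in NGP and 0.18 in CHLA-20, against 0.22 in NGP and 0.23 in CHLA-20 over all genes tested. Whether these shares differ from those of all genes was not tested. All 10 passed the filter on low counts, PAOX through its counts in CHLA-20 alone. In bulk samples fewer cells of a type and less RNA per cell cannot be told apart.

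Of the 4 synthesis genes, AMD1 was higher with JSK591 in both lines, and ODC1 and SMS were not called. SRM was slightly higher in both lines, but its call in NGP was lost under most other settings, among them removal of the GC trend of counts. AMD1 (ENSG00000123505.15, chromosome 6, 110874770 to 110895713, GRCh38) had 113 and 116 CPM in NGP with JSK591, against 99.5 and 100.4 CPM in NGP with DMSO. In CHLA-20 it had 108 and 110.3 CPM with JSK591, against 93.5 and 92.8 CPM with DMSO. The JSK591 libraries were above the DMSO libraries in both lines with no overlap, as was so in one direction or the other for 65.3% of all genes tested in NGP and 66.6% in CHLA-20. AMD1 rose by 14.5% in NGP (log2 change 0.20 ± 0.04, estimate ± SE, adjusted p = 9.71e-05) and by 17.3% in CHLA-20 (0.23 ± 0.04, adjusted p = 6.06e-06). The change was called under each of the 18 other settings tried in each line. AMD1 has 5 pseudogene entries in the annotation, with which reads could have been shared.

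SRM (ENSG00000116649.9, chromosome 1, 11054584 to 11060024) had 225 and 232 CPM in NGP with JSK591, against 209.6 and 219 CPM in NGP with DMSO. It had 194 and 189.7 CPM in CHLA-20 with JSK591, against 174 and 176 CPM in CHLA-20 with DMSO. The groups did not overlap in either line, and the gaps were small. SRM rose by 9.67% in CHLA-20 (0.13 ± 0.04, adjusted p = 0.0037), a call lost without replicate 1 of CHLA-20 with JSK591 (0.12, adjusted p = 0.0644), and by 0.31 on the log2 scale with the trend of counts with GC content removed. In NGP it rose by 6.70% (0.09 ± 0.04, adjusted p = 0.045). This call was lost when any 1 of the 8 libraries was left out (0.04 to 0.11), and the change turned to -0.0034 when that trend was removed. The call in NGP was also lost with DESeq2 (0.08), RLE scaling (0.08), no filter on low counts (0.09) and a replicate block within line (0.09). Exons of SRM hold 65.2% G and C, the highest share of the 10 genes, and it has 2 named pseudogenes.

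ODC1 (ENSG00000115758.12, chromosome 2, 10439968 to 10448504) had 714 and 749 CPM in NGP with JSK591, against 739 and 723 CPM in NGP with DMSO. In CHLA-20 it had 361 and 351 CPM with JSK591, against 349 and 339 CPM with DMSO. The libraries overlapped in NGP and in CHLA-20 the JSK591 libraries stood slightly above the DMSO libraries. Its log2 change was 0.00 ± 0.04 in NGP (95% interval -0.07 to 0.07, adjusted p = 0.98) and 0.05 ± 0.04 in CHLA-20 (-0.02 to 0.12, adjusted p = 0.293). SMS (ENSG00000102172.15, chromosome X, 21940573 to 21994835) had 147 and 156 CPM in NGP with JSK591, against 160.2 and 162 CPM in NGP with DMSO. It had 102 and 107 CPM in CHLA-20 with JSK591, against 108 and 109.6 CPM in CHLA-20 with DMSO. The 95% interval of the SMS change lay just below 0 in NGP, at -0.16 to -0.0044 (adjusted p = 0.0935), and crossed 0 in CHLA-20, at -0.14 to 0.03 (adjusted p = 0.353). SMS was called lower in NGP under some settings, among them RLE scaling (-0.10, adjusted p = 0.0398), removal of the GC trend (-0.13) and without replicate 2 of NGP with JSK591 (-0.12) or of CHLA-20 with DMSO (-0.11).

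**Figure D3:**
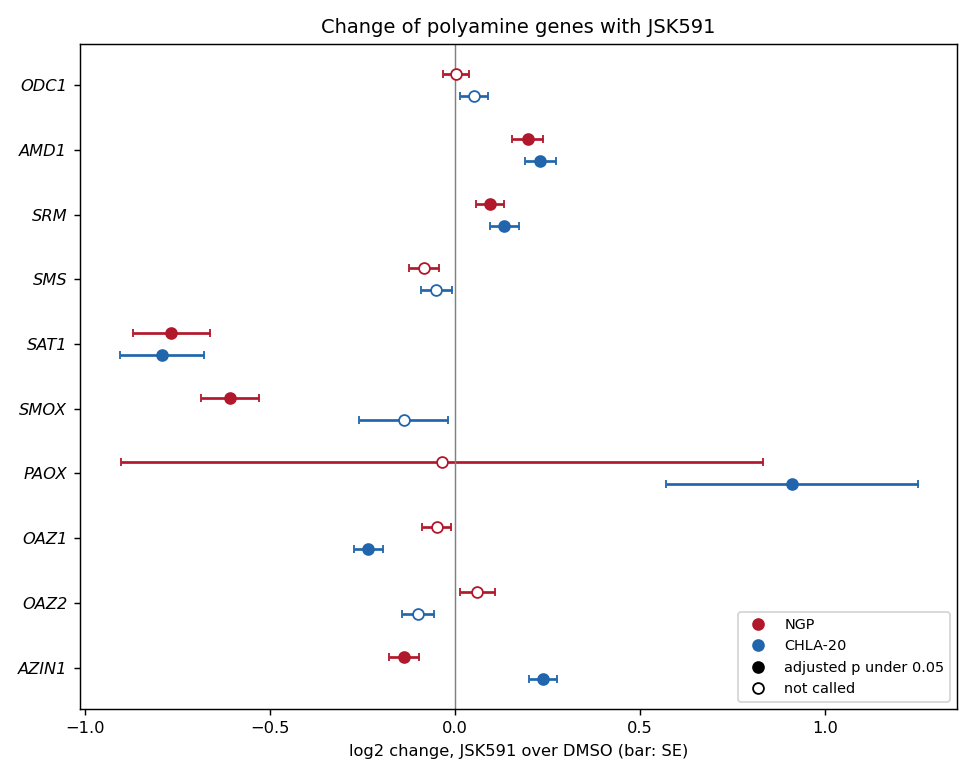
Log2 change with JSK591 against DMSO of each polyamine gene in NGP and in CHLA-20, with bars for the SE, filled points at an adjusted p under 0.05 and open points otherwise. SAT1 lies at -0.77 and -0.79, and AZIN1 is below 0 in NGP and above 0 in CHLA-20.

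Of the breakdown genes, SAT1 fell in both lines and SMOX fell in NGP. SAT1 (ENSG00000130066.16, chromosome X, 23783173 to 23786226) had 5.92 and 7.11 CPM in NGP with JSK591, against 10.9 and 11.3 CPM in NGP with DMSO. In CHLA-20 it had 4.96 and 5.20 CPM with JSK591, against 8.49 and 9.13 CPM with DMSO. All 4 JSK591 libraries were below all 4 DMSO libraries. SAT1 fell by 41.3% in NGP (log2 change -0.77 ± 0.11, adjusted p = 1.66e-08) and by 42.3% in CHLA-20 (-0.79 ± 0.11, adjusted p = 4.23e-08). These values rest on 205 and 242 reads in NGP with JSK591, 364 and 378 in NGP with DMSO, 172 and 175 in CHLA-20 with JSK591, and 287 and 308 in CHLA-20 with DMSO. Under the other settings the change ran from -0.90 to -0.66 in NGP and from -0.84 to -0.72 in CHLA-20 and was called in each.

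SMOX (ENSG00000088826.17, chromosome 20, 4120980 to 4187747) had 16.4 and 13.8 CPM in NGP with JSK591, against 23.4 and 22.7 CPM in NGP with DMSO. In CHLA-20 it had 5.45 and 5.03 CPM with JSK591, against 5.50 and 6.04 CPM with DMSO. The JSK591 libraries were well below in NGP, and in CHLA-20 the nearest pair differed by little. SMOX fell by 34.4% in NGP (-0.61 ± 0.08, adjusted p = 4.39e-09), and its log2 change in CHLA-20 was -0.14 ± 0.12 (95% interval -0.38 to 0.10, adjusted p = 0.386). PAOX (ENSG00000148832.15, chromosome 10, 133379234 to 133391694) was close to the limit of detection in NGP, with 4 and 2 reads with JSK591 and 2 and 4 reads with DMSO, so no fold is given there. In CHLA-20 PAOX had 41 and 39 reads (1.18 and 1.16 CPM) with JSK591, against 16 and 26 reads (0.473 and 0.770 CPM) with DMSO. This rise (log2 change 0.91 ± 0.34, adjusted p = 0.0273) was lost with DESeq2 (adjusted p = 0.269) and without replicate 1 of CHLA-20 with DMSO (0.60) or replicate 1 (0.90) or 2 (0.93) of CHLA-20 with JSK591. PAOX shares 6.94% of its exonic bases with another gene.

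Of the genes that control ODC1 protein, AZIN1 moved in opposite directions in the lines, and OAZ1 fell in CHLA-20. AZIN1 (ENSG00000155096.13, chromosome 8, 102826357 to 102893864) had 137 and 140.0 CPM in NGP with JSK591, against 154 and 151 CPM in NGP with DMSO. In CHLA-20 it had 307 and 326 CPM with JSK591, against 273 and 264 CPM with DMSO. Neither pair of groups overlapped. AZIN1 fell by 9.15% in NGP (-0.14 ± 0.04, adjusted p = 0.00418) and rose by 17.8% in CHLA-20 (0.24 ± 0.04, adjusted p = 3.6e-07), and was called so under the 18 other settings. AZIN1 shares 5.35% of its exonic bases with an antisense gene, and whether counting used strand is not given in the sources used here.

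OAZ1 (ENSG00000104904.12, chromosome 19, 2269509 to 2273490), whose full protein needs a ribosomal frameshift that polyamines promote, had 206 and 219 CPM in NGP with JSK591, against 219.7 and 221 CPM in NGP with DMSO. In CHLA-20 it had 219 and 207 CPM with JSK591, against 243 and 258 CPM with DMSO. The gap was clear in CHLA-20, and in NGP the nearest libraries almost met. OAZ1 fell by 15.0% in CHLA-20 (-0.23 ± 0.04, adjusted p = 1.21e-06), a call lost when the GC trend was removed (-0.08, adjusted p = 0.0647). Its log2 change in NGP was -0.05 ± 0.04 (95% interval -0.13 to 0.03, adjusted p = 0.348), and with the GC trend removed it was called lower there (-0.13, adjusted p = 0.00125). OAZ2 (ENSG00000180304.14, chromosome 15, 64687573 to 64703281), a second antizyme, had 64.7 and 63.9 CPM in NGP with JSK591, against 62.8 and 60.6 CPM in NGP with DMSO. It had 86.4 and 84.5 CPM in CHLA-20 with JSK591, against 90.0 and 93.1 CPM in CHLA-20 with DMSO. OAZ2 was called in neither line (0.06, adjusted p = 0.336 in NGP and -0.10, adjusted p = 0.0608 in CHLA-20). With the GC trend removed OAZ2 was called lower in CHLA-20 (-0.11, adjusted p = 0.0252). OAZ1 shares 6.87% of its exonic bases with other genes, and OAZ2 shares 7.22%.

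Whether the lines responded differently was tested as the difference of the JSK591 effects, NGP minus CHLA-20, within the same model. OAZ1 was called higher by this difference (lower with the GC trend removed, and then not called), as were 15.2% of all genes tested, and AZIN1 and SMOX were called lower, as were 12.5% (27.7% in either direction). AZIN1 differed by -0.38 ± 0.05 (adjusted p = 1.51e-07) and held under all settings tried, between -0.43 and -0.31. SMOX differed by -0.47 ± 0.14 (adjusted p = 0.00988), a call lost when DESeq2 was used (adjusted p = 0.0617), when rarely counted genes were kept (adjusted p = 0.0598), and without replicate 1 of CHLA-20 with DMSO (-0.41), replicate 1 of CHLA-20 with JSK591 (-0.41) or replicate 2 of NGP with JSK591 (-0.35). OAZ1 differed by 0.18 ± 0.06 (adjusted p = 0.00822), and the sign turned to -0.06 with the GC trend removed. The OAZ1 call was also lost with no filter, and without replicate 2 of CHLA-20 with DMSO (0.10), replicate 2 of CHLA-20 with JSK591 (0.14), replicate 1 (0.13) or 2 (0.15) of NGP with DMSO or replicate 2 of NGP with JSK591 (0.14). SAT1 differed by 0.03 ± 0.16 (95% interval -0.29 to 0.34, adjusted p = 0.94), which leaves room for a moderate difference either way. OAZ2 differed by 0.16 ± 0.06 (95% interval 0.03 to 0.29, adjusted p = 0.0521) and was called with total count scaling (0.17, adjusted p = 0.0453) and with at least 10 counts required in every library (0.17, adjusted p = 0.0312). The differences of ODC1, AMD1, SMS and SRM lay between -0.05 and -0.03 and were not called, though SRM was called with the GC trend removed (-0.31, adjusted p = 3.73e-07).

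**Figure D4:**
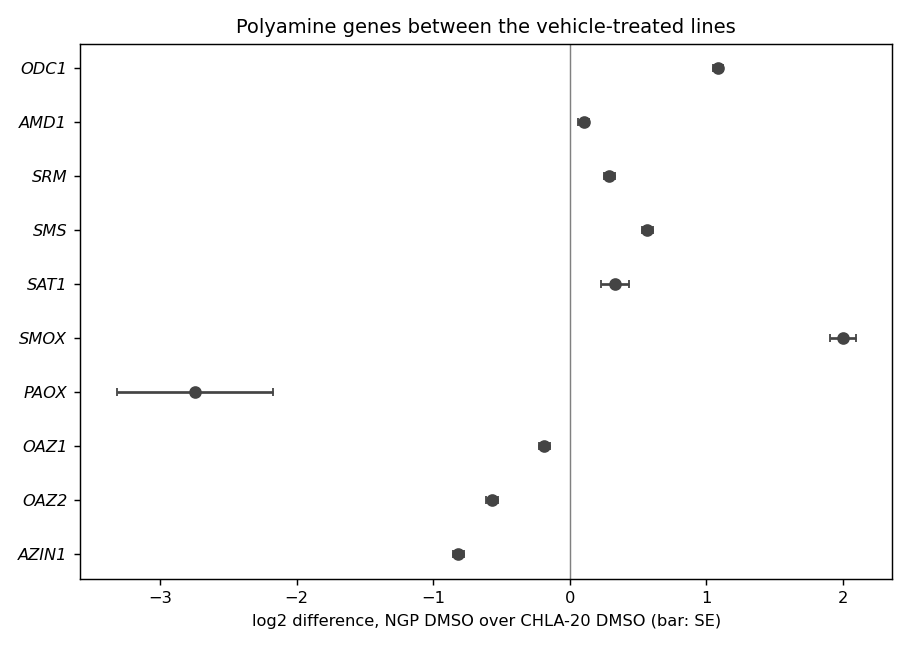
Log2 difference of each polyamine gene in NGP with DMSO against CHLA-20 with DMSO, with bars for the SE. SMOX, SMS and ODC1 are higher in NGP, and AZIN1 and OAZ2 lower. PAOX, also lower, passed the filter through CHLA-20 alone.

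The lines were also compared with each other under the vehicle. In NGP with DMSO against CHLA-20 with DMSO 6 of the 10 genes were higher and 4 lower. Of all genes tested 36.6% were higher and 38.9% lower (75.5% in either direction), and whether the shares differ was not tested. PAOX, 1 of the 4, entered only through its counts in CHLA-20, so its direction was set by the filter. The libraries of the lines did not overlap for any of the 10 genes, and for 86.6% of all genes tested. The median log2 difference of the 10 genes was 0.20, against -0.02 over all genes tested, and its median size without sign was 0.57, against 0.67. This comparison shares its DMSO libraries with the comparisons within each line. ODC1 averaged 731 ± 11.0 CPM in NGP with DMSO and 344 ± 7.59 CPM in CHLA-20 with DMSO (SD, n = 2 each), a 2.13-fold difference (log2 1.09 ± 0.04, adjusted p = 6.73e-36). SMOX was 3.99-fold higher in NGP (2.00 ± 0.09, adjusted p = 1.69e-28) and SMS 1.48-fold higher (0.57 ± 0.04, adjusted p = 1.44e-19). SRM was higher by 0.29 ± 0.04 (adjusted p = 6.69e-10), and by 0.73 with the GC trend removed. SAT1 was higher by 0.33 ± 0.10 (adjusted p = 0.0024), a call lost with DESeq2 (0.35, adjusted p = 0.0507). AMD1 was higher by 0.10 ± 0.04 (adjusted p = 0.0256), which turned to -0.03 with the GC trend removed and was also lost without either CHLA-20 library with DMSO.

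The controlling genes AZIN1, OAZ2 and OAZ1 were all lower in NGP with DMSO, though OAZ1 was higher with the GC trend removed. AZIN1 averaged 152 ± 2.15 CPM in NGP with DMSO and 268 ± 6.36 CPM in CHLA-20 with DMSO (-0.82 ± 0.04, adjusted p = 3.6e-28). OAZ2 was lower by -0.57 ± 0.05 on the log2 scale (adjusted p = 8.28e-18). OAZ1 was lower by -0.19 ± 0.04 (adjusted p = 2.52e-05), and differed by 0.21 with the GC trend removed. PAOX had 2 and 4 reads in NGP with DMSO, against 16 and 26 reads in CHLA-20 with DMSO. As PAOX passed the filter through CHLA-20 alone, its lower level in NGP is a description and not a test.

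ODC1 lies on the short arm of chromosome 2, which also carries MYCN. Its nearest tested protein-coding neighbours were read in the same comparison of NGP with DMSO against CHLA-20 with DMSO. Of the 3 such neighbours on each side, 5 were higher in NGP, where 36.6% of all genes tested, coding or not, were. On one side RRM2, a subunit of ribonucleotide reductase, differed by 0.63 ± 0.04, HPCAL1, a calcium sensor, by 0.27 ± 0.05, and AC007240.1 was not called (0.07 ± 0.35). On the other side the ribosome biogenesis gene NOL10 differed by 0.96 ± 0.06, ATP6V1C2, a proton pump subunit, by 1.67 ± 0.25, and PDIA6, a disulfide isomerase, by 1.02 ± 0.04. DNA copy number was not measured in these libraries, and its part in the ODC1 difference was not tested.

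MYCN had 2021 and 2001 CPM in NGP with JSK591, 2256 and 2389 CPM in NGP with DMSO, 2.02 and 3.598 CPM in CHLA-20 with JSK591 and 2.57 and 2.10 CPM in CHLA-20 with DMSO. MYC had 0.491 and 0.559 CPM in NGP with JSK591, 0.835 and 1.11 CPM in NGP with DMSO, 1039.96 and 1022 CPM in CHLA-20 with JSK591 and 1393 and 1403 CPM in CHLA-20 with DMSO. Each line thus had high messenger RNA of one of these factors and little of the other. MYCN fell in NGP with JSK591 (-0.21 ± 0.04, adjusted p = 2.26e-05) and MYC fell in CHLA-20 with JSK591 (-0.44 ± 0.03, adjusted p = 2.07e-16). At its low level in NGP MYC was lower with JSK591 as well (-0.88, adjusted p = 0.00919), and MYCN was not called in CHLA-20 (0.26, adjusted p = 0.249). ODC1, a known target of both, was called in neither line.

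The genes whose pattern over the 4 group means was most like that of ODC1 were LIN28B, MTIF2, C21orf91, TJAP1 and CPSF3, with root mean square differences of 0.00916 to 0.0242 on the log2 scale among 9253 protein-coding genes ranked. Those most like SAT1 were MVD, AKR1A1, VPS37D, CAT and MLLT3, with differences of 0.0284 to 0.102 among 9254 genes. With 4 points a pattern is only coarsely described.

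**Figure D5:**
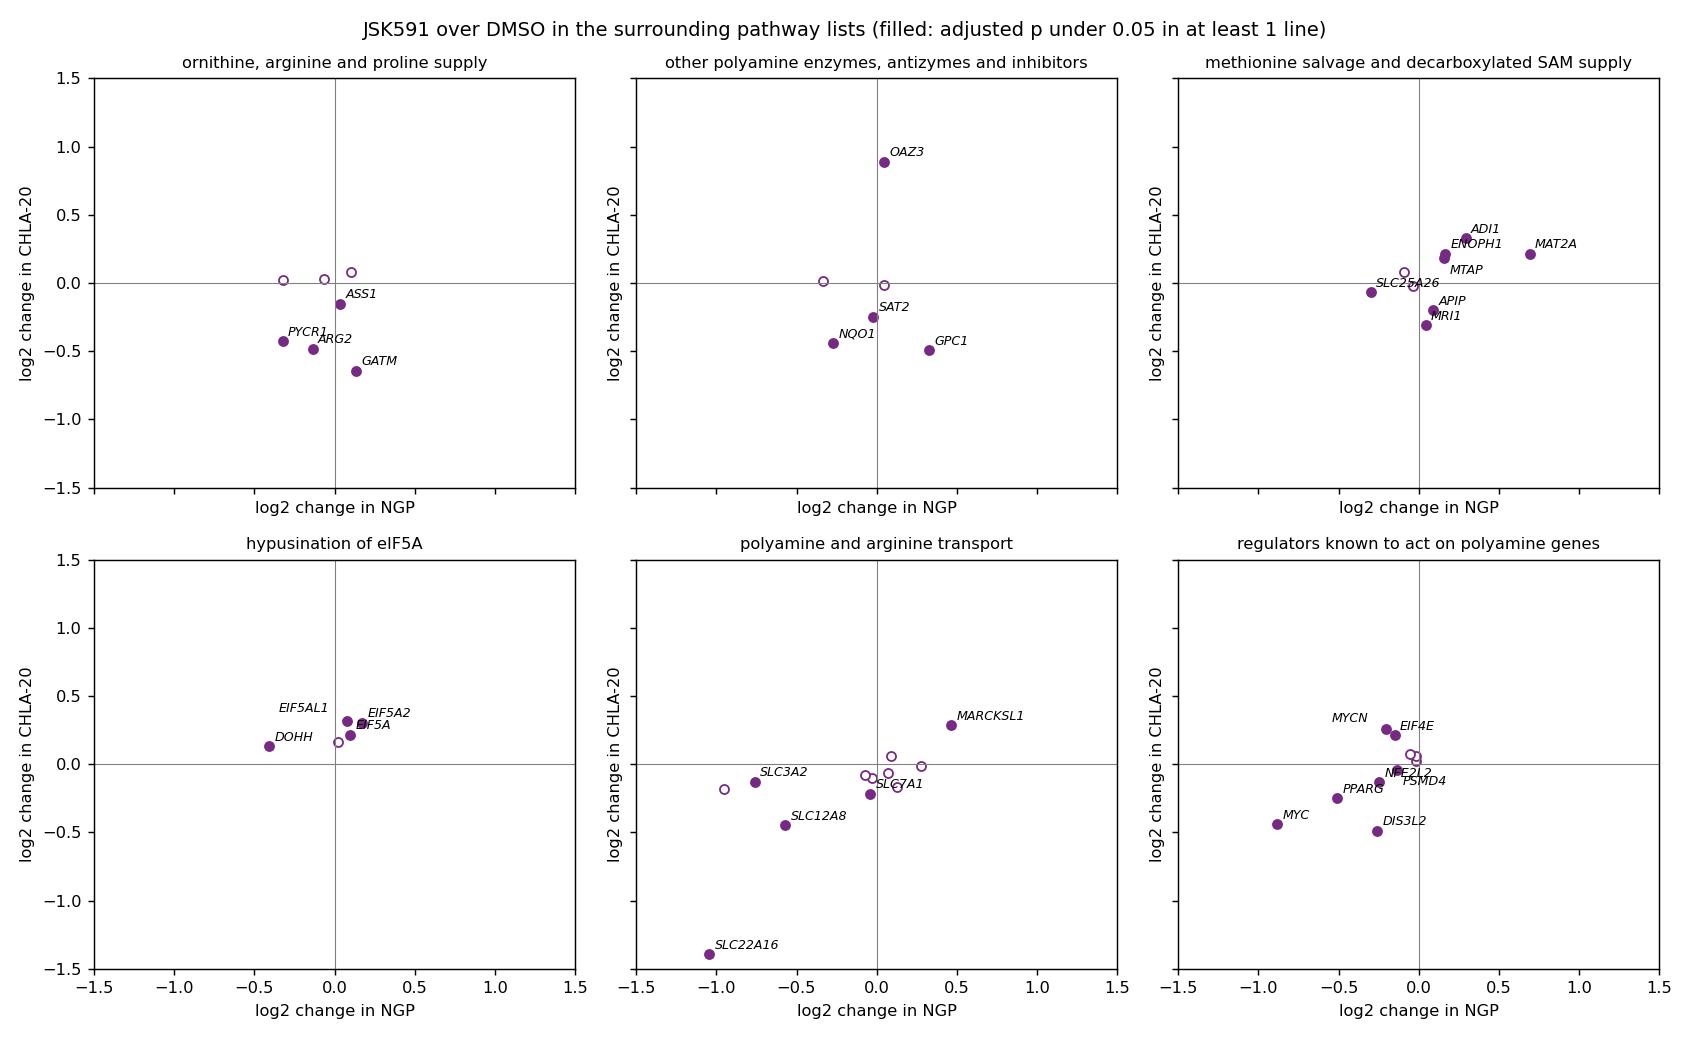
Log2 change with JSK591 against DMSO in NGP (horizontal axis) and in CHLA-20 (vertical axis) for the reported tested genes of 6 related lists, a panel for each list, with named filled points at an adjusted p under 0.05 in at least 1 line and open points otherwise. MAT2A lies at 0.69 in NGP and 0.22 in CHLA-20, and ATP13A4, with no reads in NGP with JSK591 and called in neither line, lies outside the axes.

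Around these 10 genes, 6 lists of supplying, using, transporting and regulating genes were counted in the same fits. Their counts stand against 16.8% of all genes tested higher and 19.4% lower in NGP, and 16.9% higher and 22.4% lower in CHLA-20. With lists of 5 to 13 tested genes, no count was tested against these shares. Of 9 methionine salvage and methionine cycle genes tested, 4 were higher and 1 lower in NGP with JSK591, and 4 higher and 2 lower in CHLA-20 with JSK591, with medians of 0.09 in NGP and 0.08 in CHLA-20. MAT2A, which makes S-adenosylmethionine, the substrate of both AMD1 and PRMT5, averaged 212 CPM in NGP with JSK591 and 132 CPM in NGP with DMSO (0.69 ± 0.04, adjusted p = 2.82e-22). It averaged 336 CPM in CHLA-20 with JSK591 and 289.7 CPM in CHLA-20 with DMSO (0.22 ± 0.04, adjusted p = 2.52e-06). The MAT2A rise was larger in NGP (difference 0.48, adjusted p = 2.20e-10). ENOPH1, a salvage enzyme, rose in both lines (0.16 ± 0.05 in NGP and 0.21 ± 0.04 in CHLA-20). MTAP, which clears the by-product of SRM and SMS, rose as well (0.16 in NGP, adjusted p = 0.0088, and 0.18 in CHLA-20, adjusted p = 0.00183). SLC25A26, the mitochondrial carrier of S-adenosylmethionine, fell in NGP (-0.30 ± 0.09, adjusted p = 0.00443), and the salvage enzyme MRI1, which shares 34.5% of its exonic bases with other genes, fell in CHLA-20 (-0.31 ± 0.08, adjusted p = 0.00057).

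Of 8 tested genes of ornithine, arginine and proline supply, 1 was higher and 1 lower in NGP, and 0 higher and 4 lower in CHLA-20, with medians of -0.02 in NGP and -0.06 in CHLA-20. PYCR1, a proline synthesis enzyme that shares 29.7% of its exonic bases with other genes, fell in both lines (-0.32 ± 0.05 in NGP and -0.42 ± 0.04 in CHLA-20). ASL, which releases arginine, was not called in NGP (-0.32 ± 0.16, adjusted p = 0.117). In CHLA-20 ARG2, which makes ornithine from arginine and shares 37.4% of its exonic bases with VTI1B, fell by 0.48 ± 0.11, and ASS1, of arginine synthesis, fell by 0.15 ± 0.04.

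Of 6 tested genes listed as other polyamine enzymes, antizymes and inhibitors, 1 was higher and 0 lower in NGP, and 1 higher and 3 lower in CHLA-20, with medians of 0.01 in NGP and -0.13 in CHLA-20. GPC1, a heparan sulfate proteoglycan linked to polyamine uptake, rose in NGP (0.32 ± 0.05) and fell in CHLA-20 (-0.49 ± 0.05), a difference of 0.81 (adjusted p = 4.21e-14). SAT2, a relative of SAT1, fell in CHLA-20 (-0.25 ± 0.05), as did NQO1, a quinone reductase (-0.44 ± 0.08). NQO1 (-0.27, adjusted p = 0.175) and SATL1 (-0.33, adjusted p = 0.214) were not called in NGP.

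Of 5 tested genes for eIF5A, the translation factor that receives hypusine made from spermidine, 1 was higher and 1 lower in NGP, and 3 higher and 0 lower in CHLA-20, with medians of 0.08 in NGP and 0.22 in CHLA-20. EIF5A averaged 255 CPM in NGP with JSK591 and 239 CPM in NGP with DMSO (0.10 ± 0.04, adjusted p = 0.046). It averaged 768 CPM in CHLA-20 with JSK591 and 661 CPM in CHLA-20 with DMSO (0.22 ± 0.04, adjusted p = 1.56e-06). EIF5A and its near-identical copy EIF5AL1 (0.32 ± 0.05 in CHLA-20) can share reads, so both are uncertain. EIF5A2, a second form, rose in CHLA-20 (0.30 ± 0.12, adjusted p = 0.0456) and was not called in NGP (0.17, adjusted p = 0.254). DOHH, which completes hypusine, fell in NGP (-0.41 ± 0.09, adjusted p = 0.000214).

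Of 13 tested transport genes, 1 was higher and 3 lower in NGP, and 1 higher and 2 lower in CHLA-20, with medians of -0.04 in NGP and -0.13 in CHLA-20. SLC3A2, the heavy chain of amino acid exchangers, averaged 107 CPM in NGP with JSK591 and 181 CPM in NGP with DMSO (-0.76 ± 0.04, adjusted p = 5.74e-23), and fell less in CHLA-20 (-0.13 ± 0.04, difference -0.63, adjusted p = 1.02e-12). MARCKSL1, a membrane-bound actin regulator, rose in both lines (0.46 ± 0.04 in NGP and 0.29 ± 0.04 in CHLA-20). SLC12A8 fell in NGP (-0.57 ± 0.06), and SLC7A1, a cationic amino acid transporter that takes up arginine, fell in CHLA-20 (-0.22 ± 0.04). Of 11 regulators, 0 were higher and 6 lower in NGP, and 2 higher and 4 lower in CHLA-20, with medians of -0.15 in NGP and 0.03 in CHLA-20. NFE2L2, a regulator of oxidative stress genes that shares 20.9% of its exonic bases with other genes, fell in NGP (-0.25 ± 0.05). DIS3L2, an RNA exonuclease, fell in both lines (-0.26 ± 0.06 in NGP and -0.49 ± 0.06 in CHLA-20).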

How the data were processed

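The deposited files hold raw counts per gene, 1 library each. The authors' tools are given as STAR, HTSeq and DESeq2 on GRCh38 (hg38), per the submitters' processing notes. Versions, annotation and strand setting are not given in the sources used here. Rows that name no gene held 5.15% to 6.86% (no feature), 6.77% to 7.18% (ambiguous) and 19.2% to 22.0% (not unique) of counted reads and were left out. Counts were tested with edgeR 4.0.16 (limma 3.58.1, R 4.3.3), prepared with Python 3.11.15. Genes passing filterByExpr over the 4 groups (19395) were scaled by TMM, and 1 quasi-likelihood model of 4 group means was fitted to all 8 libraries. It had 4 residual degrees of freedom and a biological coefficient of variation of 2.76%. The test shares information on spread among genes, so its p-values and intervals use more than these 4 degrees of freedom. P-values are two-sided, Benjamini-Hochberg adjusted over all genes tested, with threshold 0.05. The SE comes from the test's F value. DESeq2 1.42.0, other scalings and filters, GC trend removal, replicate blocks and left-out libraries were alternatives. Same-numbered libraries did not deviate together (correlations -0.027 to 0.012), so no block was used. The chi-square between replicates was 2.16 to 3.36 times its degrees of freedom, so none was taken as a repeated deposit. Scripts were tested on simulated data. Intervals and floors cover counting error only where they come from counts. All 10 members are named. Sharing of exonic bases is printed beside only some of the genes named. It also holds for others, among them PRMT5 (27.1%), NQO1 (17.7%), ASL (17.6%), SLC25A26 (15.5%) and MAT2A (12.4%). From each related list the 3 genes with the smallest adjusted p in each line are named, apart from some not reported here, plus MYC and MYCN, and others singled out (PRMT5, TH, MTAP, the ODC1 neighbours, ATP13A4) were chosen after their values were seen or to check the labels. For likeness, protein-coding genes of mean CPM 10 or more were ranked on log2 CPM with a prior count of 2, and 5 are named. Members and lists were chosen with earlier results of these data known.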

Additional observations from a re-analysis of the deposited data

Results flagged for a closer look

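For 3 of the 10 polyamine genes the effect of JSK591 differed between the lines by the test of the difference itself. By the same test 27.7% of all genes tested were called in either direction. Whether the count of polyamine genes differs from that share was not tested. AZIN1, the antizyme inhibitor, differed by -0.38 (NGP minus CHLA-20, adjusted p = 1.51e-07 by edgeR's quasi-likelihood test), with NGP lower with JSK591 and CHLA-20 higher. SMOX, the spermine oxidase, differed by -0.47 (adjusted p = 0.00988), with a fall in NGP, and the call was lost with DESeq2, with no filter and without any of 3 libraries. OAZ1, the antizyme, differed by 0.18 (adjusted p = 0.00822), with a fall in CHLA-20. With the GC trend removed the OAZ1 difference turned to -0.06 and the fall in CHLA-20 was no longer called (-0.08, adjusted p = 0.0647), and the difference was also lost without any of 5 libraries. Groups of 2 libraries are too small for a search for single outlying samples.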

How the results depend on the processing

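Of the 10 genes' values in 4 comparisons under up to 18 alternatives, 634 kept direction and side of the threshold, 34 lost a call and 13 gained one. In 16 cases a value not called changed sign and stayed not called, for ODC1 and PAOX in NGP and for SAT1 and AMD1 in the difference of effects. In 8 cases a called value changed sign, each with removal of the GC trend, alone and with the replicate block: SRM in NGP (-0.0034 in both), OAZ1 in the difference of effects (-0.056 in both), and, between the DMSO lines, AMD1 (-0.028 in both) and OAZ1 (0.21 in both). The count of polyamine genes higher in NGP, 2, became 1 with DESeq2, RLE scaling, no filter, a replicate block within line and GC trend removal with or without the block, and 1 when any library was left out. The count lower in NGP, 3, became 5 with the GC trend removed, with or without the block. Leaving out libraries gave 2 to 4 higher in CHLA-20. In the difference of effects the count higher, 1, became 2 with total count scaling or at least 10 counts in every library, 0 with no filter or the GC trend removed with or without the block, and 0 to 1 with a library left out. The count lower there, 2, became 1 with DESeq2 or no filter, and 1 to 2 with a library left out. DESeq2 called 1812 genes higher in NGP, against 3266, and 1633 higher in the difference, against 2950. With another gene length 6 genes kept their place in the order of levels in NGP with JSK591, 4 in NGP with DMSO, 5 in CHLA-20 with JSK591 and 4 in CHLA-20 with DMSO. A replicate block over all libraries, whose numbers do not pair the samples, left every count of polyamine genes as it was, at 2 higher and 3 lower in NGP, 4 and 2 in CHLA-20, 1 and 2 in the difference and 6 and 4 between the lines. A block within each line makes the comparison between the lines one of replicate 1 levels, which is another quantity. The AMD1 difference was not called there (0.09 ± 0.05, adjusted p = 0.108). The block over all libraries called 3256 genes higher and 3757 lower in NGP. Leaving out a library leaves 1 sample in its group, assumed to vary like the others. A fit of the compared groups alone was not run for the difference, and PAOX had no value with at least 10 counts required. Depth limits PAOX in NGP. The causes were not tested.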
